A study of Rattus norvegicus with 3 samples.

Results

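Integrated stress response genes were followed in RNA of the rat adrenal medulla, on 1-colour short oligonucleotide arrays from rats held in the cold for 7 days (1 array, letter a) or for 1 day (2 arrays, letters a and b). The members were Atf3, Atf4, Atf5, Ddit3, Ddit4, Trib3, Asns, Chac1, Sesn2 and Cebpb, taken as a list of genes of the ATF4 pathway, with every probe set annotated to one of them alone. These 10 genes had 13 probe sets of the 31042 that measure genes, 3 of them for Trib3 and 2 for Sesn2. All rats behind these arrays had been in the cold. No array from rats kept out of it was analysed here, and the labels give no strain, age, sex or temperature. Nothing in the labels tells whether the 1-day arrays stand for separate animals, so their spread may be technical only, and precision is limited by there being 3 arrays.

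The integrated stress response is the route by which cells meet amino acid shortage, unfolded protein in the endoplasmic reticulum, viral RNA or haem shortage. Each of these activates a kinase that phosphorylates the initiation factor eIF2 on its alpha subunit, which slows protein synthesis in general but lets ATF4 be made from an mRNA that is otherwise poorly translated. ATF4 then switches on genes of amino acid supply, of redox balance and of growth restraint, together with further transcription factors. Because ATF4 is controlled largely at translation, its mRNA level need not follow its protein. In bulk tissue, fewer cells of a type and less RNA per cell cannot be told apart.

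The values were the intensities that the authors had summarised per probe set and scaled, taken as log2(intensity + 16), and a difference is a difference on that log2 scale. Levels of different probe sets depend on the probes and were not compared. The 15521 gene probe sets whose mean log2 level was at or above the median of all (9.60) are called kept, and 12 of the 13 member probe sets were among them. Differences were recomputed in 6 settings, which are the values as scaled with pseudocounts of 16, 1 and 64, quantile normalisation, centring of each array on its median, and removal of the trend on intensity. A change of pseudocount cannot turn the sign of a difference between single arrays. Only quantile normalisation, median centring and removal of the trend could do so. Median centring moves the differences of all probe sets between the same arrays by the same amount. The 2% trimmed mean was 2501 on each array, whereas the median gene probe set read 675 on the 7-day array, 1583 on 1-day array a and 593 on 1-day array b. The 3′ over 5′ ratio of the beta-actin control probe sets, which grows when RNA is degraded or incompletely copied, was 8.87 on the 7-day array, 231 on 1-day array a and 6.11 on 1-day array b. For the GAPDH control probe sets the ratios lay closer together, at 1.87, 5.02 and 1.79 in that order. Member differences and list medians are therefore given against each 1-day array. Markers of the labelled tissue were high, with 10 of 10 measured chromaffin cell markers above the intensity filter and a summed intensity of 1158200 on the 7-day array, 2406480 on 1-day array a and 991134 on 1-day array b. Adrenal cortex markers, a sign of the neighbouring tissue, summed to 1345670, 1959960 and 1014590 on those arrays, and 8 of 8 measured ones read higher at 7 days than on 1-day array b. White blood cell markers summed to 15899, 14011 and 20324 in the same order, with 7 of 10 above the filter, and none of these markers was at 0. As scaled, 6 of 10 chromaffin markers and 1 of 7 kept white blood cell markers read higher than array b. Relative to array a 4 of 8 cortex, 4 of 10 chromaffin and 5 of 7 white blood cell markers read higher. Of all kept probe sets, 50% were higher than array b and 47.1% higher than array a. The part of RNA quality and of cell make-up in the differences below was not tested.

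Against 1-day array b, the 7-day array read within 0.10 (log2) for Atf4, Ddit3, Cebpb and Atf5, lower for Atf3, and higher for Chac1, Ddit4, Asns and all 3 Trib3 probe sets. The 5 transcription factors, all kept, differed from array b by -1.11 to -0.02, with 5 of 5 lower, though Ddit3 turned to 0.0016 with quantile normalisation. Lower than array b were 43% of all gene probe sets and 50% of kept ones. Of the 8 probe sets of effector genes, which act on amino acids, glutathione or growth signalling, 7 were higher and 1 lower, with a median of 0.39. Higher than array b were 57% of all gene probe sets and 50% of kept ones. The 8 effector probe sets include 3 of Trib3 and the dim one of Sesn2. With the brightest probe set standing for each gene, 4 of 5 effector genes were higher and Sesn2 lower. Against 1-day array a the same effector probe sets had a median of -1.01, with 2 of 8 higher. The transcription factors had a median of -0.22 with 1 of 5 higher. Higher than array a were 34.2% of all gene probe sets and 47.1% of kept ones. The members' array a values depended on the scaling. With median centring 6 of 8 effector probe sets (median 0.21) and 4 of 5 transcription factors (median 0.99) read higher than array a. The median relative to array a was then 0.50 over all gene probe sets and 1.12 over kept ones. The split by role was not among the planned comparisons, and the difference between roles was not tested.

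**Figure D1:**
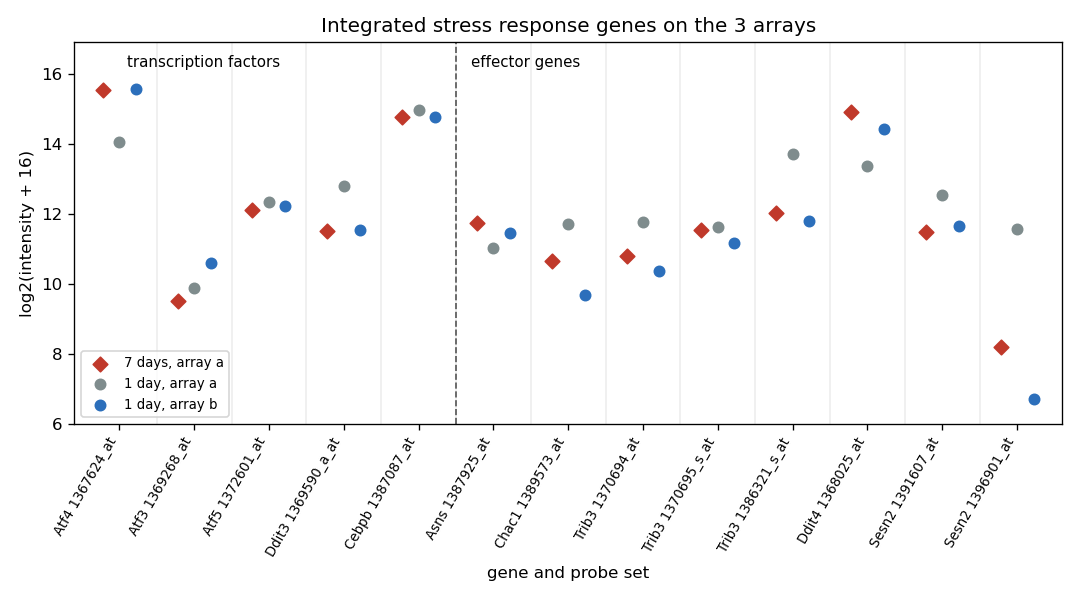
Level of each member probe set, as log2(intensity + 16), on the 7-day array (diamonds) and the 2 arrays of 1 day (circles), 1 point per array. The 7-day points lie close to 1-day array b for most probe sets, with Atf3 (9.50 against 10.61) and Chac1 (10.65 against 9.66) among the exceptions, while 1-day array a often lies apart.

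Atf4 encodes the transcription factor at the centre of the response, and its probe set (1367624_at) read 47407 on the 7-day array, 17085 on 1-day array a and 48301 on 1-day array b. The 7-day value lay between the 1-day values and 0.03 under array b, while the 1-day arrays were 1.50 apart. Its difference from array b stayed below 0 in all 6 settings tried, at -0.21 to -0.03, and that from array a above 0, at 0.89 to 2.68.

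Atf3 is a transcription factor gene of the same family that ATF4 induces and that also belongs to the genes switched on within minutes of cell stimulation. Its probe set (1369268_at) read 707 on the 7-day array, 916 on 1-day array a and 1541 on 1-day array b. The 7-day array was thus the lowest of the 3, by 0.37 relative to array a and by 1.11, or 0.464-fold, relative to array b. On this scale no other kept member was at least 2-fold from array b (with a pseudocount of 1, Chac1 also reached 1.00, and with quantile normalisation Atf3 stood at -0.86), beside 0.561% of kept probe sets at least 2-fold lower and 1.84% at least 2-fold higher, and 0.354% of all kept probe sets read as far below that array or farther. Of all gene probe sets, 6.64% were at least 2-fold lower than array b. Atf3 had a mean log2 level of 9.99, near the filter at 9.60, and its 7-day value of 9.50 was under it. Relative to array b Atf3 was lower in 6 of 6 settings, from -1.29 to -0.86. Relative to array a the sign was not stable, since it turned to 0.95 with quantile normalisation, 0.85 with median centring and 0.65 with the intensity trend removed.

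Ddit3 encodes CHOP, the factor linked to cell death under lasting stress, and its probe set (1369590_a_at) read 2870.2 on the 7-day array, 7137 on 1-day array a and 2974 on 1-day array b. The 7-day array and array b were 0.05 apart, and array a stood 1.26 above array b. The difference from array a stayed below 0 in 6 of 6 settings (-1.52 to -0.10), and that from array b ran from -0.23 to 0.0016. As scaled, Ddit3, too, showed a larger gap between the 1-day arrays than between 7 days and array b. With median centring the 1-day gap was the smaller, at 0.13 beside a difference of -0.23 from array b.

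Atf5, a relative of ATF4 that is likewise controlled at translation, read 4422 on the 7-day array, 5156 on 1-day array a and 4729 on 1-day array b (1372601_at). Cebpb, which encodes a C/EBP factor that pairs with ATF4 and also answers to glucocorticoids and cytokines, read 27645, 32042 and 27968 on the same arrays (1387087_at). As scaled, the 1-day arrays lay 0.12 apart for Atf5 and 0.20 for Cebpb, and with median centring 1.27 and 1.20. At 7 days Atf5 lay 0.10 and Cebpb 0.02 below the lower 1-day array. With median centring both stood above array a, Atf5 by 0.99 and Cebpb by 1.00, beside a median of 1.12 over all kept probe sets.

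Chac1, whose product breaks down glutathione, was the kept member that read farthest above 1-day array b. Its probe set (1389573_at) gave 1594 on the 7-day array, 3336 on 1-day array a and 794 on 1-day array b. The 7-day value lay 0.99 above array b, or 1.99-fold on the log2(intensity + 16) scale, and 1.06 below array a (0.15 above it with median centring). Among all kept probe sets, 1.92% read at least as far above array b. The difference from array b was above 0 in 6 of 6 settings, from 0.69 with quantile normalisation to 1.00. As scaled, the 1-day arrays themselves were 2.05 apart, so the 7-day value was inside the spread between them. With median centring they were 0.66 apart, and the 7-day value lay above both.

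Trib3 encodes a pseudokinase that damps ATF4 and CHOP activity and AKT signalling. Its 3 probe sets read 1752, 2942 and 4128 on the 7-day array (1370694_at, 1370695_s_at and 1386321_s_at), 3452, 3118 and 13433 on 1-day array a, and 1308, 2298 and 3504 on 1-day array b. All 3 lay between the 1-day arrays, above array b by 0.42, 0.35 and 0.24 and below array a by differences of -0.97, -0.08 and -1.70, of which the first turned to 0.24 and the second to 1.13 with median centring, and the second also to 0.06 and 0.12 with quantile normalisation and the intensity trend removed. They agreed on the order of 7 days and array b in every setting, the lowest value being 0.05 with median centring for 1386321_s_at. They were unlike each other in how far array a stood out, from 0.44 above array b for 1370695_s_at to 1.93 for 1386321_s_at. The ending s_at marks probes that match more than 1 transcript, and probe sets of a gene are not replicates of a condition.

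The letters of a C/EBP-ATF composite element, the kind of site ATF4 binds with a C/EBP partner, were searched for in RefSeq promoters of assembly GRCr8, in the 250 bases before the annotated start and on both strands. The pattern TGATGNAA stood in the promoters of Chac1 and Trib3, which are 2 of the 9 members other than Atf3, and in 3.4% of 33469 promoters. TGACGNAA, a variant with a cyclic AMP element core, stood in that of Chac1 and in 1.75% of promoters, and the full element TGACGTCA in 0 of the 9 and in 1.59%. The patterns were chosen after the promoters had been read, so the member counts were open to selection. Setting them beside the background shares therefore cannot tell whether members hold these patterns more often than other genes. The patterns do not overlap each other in these promoters. Chac1 and Trib3 are printed because they hold a match and because their probe sets read above array b, with the matched letters in capitals. The Chac1 sequence is chr3:126795881-126796130, plus strand, and the Trib3 sequence chr3:161275534-161275783, minus strand, both 5′ to 3′ and ending at the base before the start.
Chac1: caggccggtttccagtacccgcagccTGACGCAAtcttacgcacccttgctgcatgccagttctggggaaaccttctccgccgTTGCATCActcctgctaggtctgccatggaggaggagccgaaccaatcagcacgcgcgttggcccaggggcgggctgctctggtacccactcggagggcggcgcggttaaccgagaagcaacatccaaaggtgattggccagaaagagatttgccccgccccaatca
Trib3: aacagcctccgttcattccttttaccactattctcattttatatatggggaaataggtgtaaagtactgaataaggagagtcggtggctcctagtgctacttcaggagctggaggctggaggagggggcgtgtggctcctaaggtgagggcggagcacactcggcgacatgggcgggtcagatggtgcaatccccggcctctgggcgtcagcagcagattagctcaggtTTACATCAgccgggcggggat
In Chac1 the match TTGCATCA begins 167 bases before the start and reads TGATGNAA on the other strand, and TGACGCAA begins 224 bases before it. In Trib3 the match TTACATCA begins 21 bases before the start, again on the other strand. A match of letters describes the sequence and shows no binding.

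Asns and Ddit4 were the members that read above both 1-day arrays. Asns encodes asparagine synthetase, a classical target of amino acid shortage, and its probe set (1387925_at) gave 3403 on the 7-day array, 2079.7 on 1-day array a and 2786 on 1-day array b. It was thus higher at 7 days by 0.71 relative to array a and 0.29 relative to array b, where the 1-day arrays were 0.42 apart. Ddit4 encodes REDD1, an inhibitor of the growth kinase complex mTORC1 that hypoxia and glucocorticoids also induce. It read 30894 on the 7-day array, 10474 on 1-day array a and 22088 on 1-day array b (1368025_at), which is 1.56 above array a and 0.48 above array b. Relative to array b the differences stayed above 0 in 6 of 6 settings, at 0.11 to 0.32 for Asns and 0.30 to 0.49 for Ddit4. They also stayed above 0 relative to array a, at 0.69 to 1.92 and 1.03 to 2.77. Of all kept probe sets, 18.7% read at least as far above array b as Asns and 9.23% at least as far as Ddit4.

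Sesn2, whose product senses leucine and restrains mTORC1, had probe sets that disagreed. The brighter (1391607_at) read 2857 on the 7-day array, 5888 on 1-day array a and 3183 on 1-day array b, a difference of -1.04 from array a (0.17 with median centring) and -0.15 from array b. The dimmer (1396901_at) read 274, 3009 and 88.2 on these arrays, a difference of -3.38 from array a and 1.47 from array b. That second probe set was the only member to miss the intensity filter, with a mean log2 level of 8.81 against the 9.60 required. On 1-day array b it stood at percentile 17.6 of the gene probe sets and on 1-day array a at percentile 75, and a Sesn2 direction is not given from it.

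**Figure D2:**
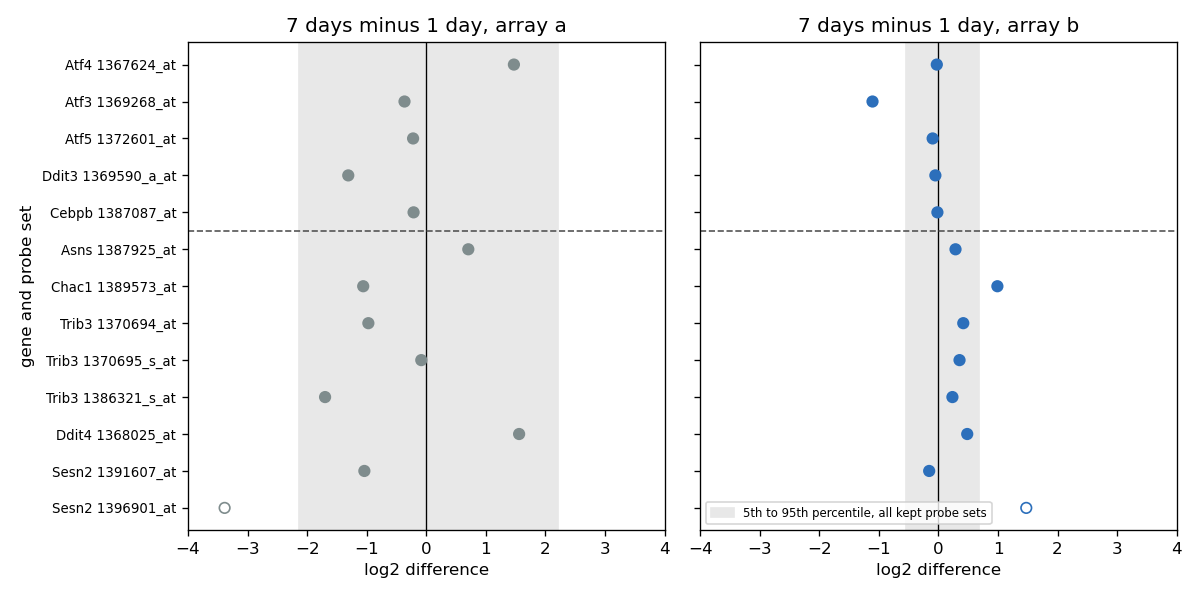
Log2 difference of the 7-day array from 1-day array a (left) and from 1-day array b (right) for each member probe set, with open circles for the Sesn2 probe set that missed the intensity filter and grey bands from the 5th to the 95th percentile of all kept probe sets. The band runs from -2.13 to 2.21 against array a and from -0.55 to 0.68 against array b, and among kept members Atf3 and Chac1 lie outside the array b band.

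**Figure D3:**
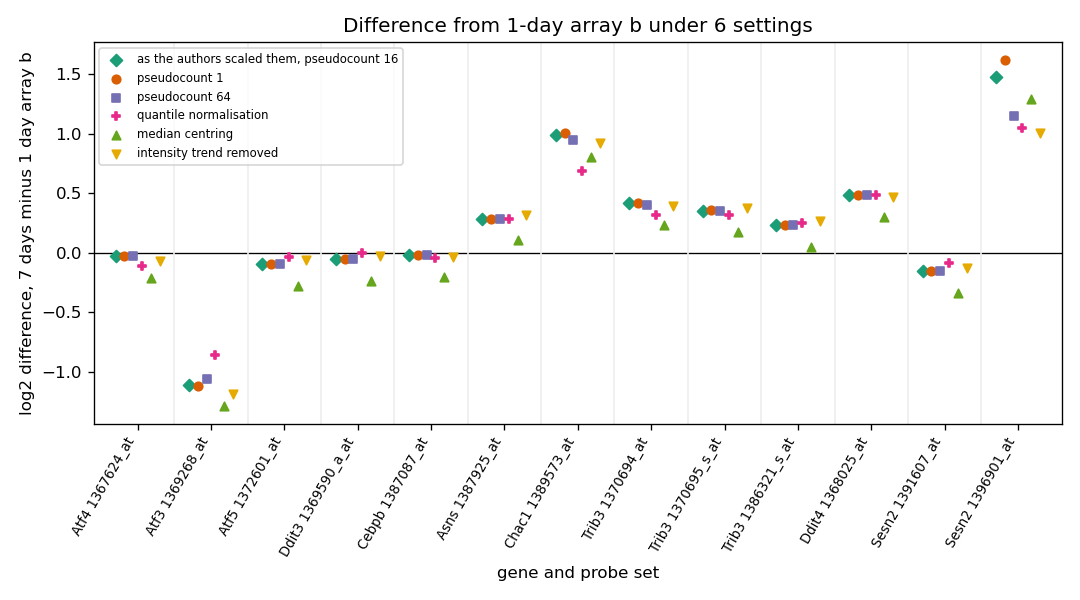
Log2 difference of the 7-day array from 1-day array b for each member probe set under 6 settings of pseudocount and scaling, 1 symbol per setting. Of 13 probe sets, 12 keep their sign in all 6 settings, and Ddit3 lies between -0.23 and 0.0016, whereas relative to array a, which is not plotted, 6 of 13 keep theirs. The settings that change only the pseudocount could not turn a sign.

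The comparison of 7 days with both 1-day arrays asked whether the longer stay differed by more than the 1-day arrays differed from each other. In limma, 0 of the 12 kept member probe sets had an adjusted p under 0.05, beside 0% of all 15521 probe sets tested. The lowest unadjusted p among the members was 0.304, for Ddit4 (1.02 ± 0.99, SE), 0 had an unadjusted p under 0.05, and every adjusted p rounded to 1.00. The fit has 1 residual degree of freedom, from the 1-day pair, and its SE is the spread fitted at that intensity rather than the spread of the gene's own 1-day values. Such a result does not show that the genes were alike at 7 days and 1 day.

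By position, 2 of the 13 member probe sets read above both 1-day arrays, 5 below both and 6 between them. Over all 31042 gene probe sets these shares were 18.8% above, 27.6% below and 53.7% between, so the members' counts are near the background. At least 2-fold beyond both 1-day arrays there were 0 members, where the background was 1.25% above and 5.74% below, and 0.0387% and 0.341% among kept probe sets. Set against the mean of the 1-day pair, the median difference was -0.16 for the members and -0.20 over all gene probe sets. The members' value turned to 0.36 with median centring, and was 0.24 without 1-day array a and -0.37 without 1-day array b. Relative to 1-day array b it was 0.24 for the members (0.05 with median centring) and 0.08 over all, and 0.11 for the 12 kept members and 0.00046 over all kept probe sets. Relative to 1-day array a the medians were -0.37 for the members and -0.71 over all. Of the 13, 1 was at least 2-fold lower than array b and 1 at least 2-fold higher, namely Atf3 and the dim Sesn2 probe set, beside 6.64% and 14.9% of all gene probe sets.

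As scaled, the distance between the 1-day arrays exceeded that between 7 days and array b for most members. With median centring the 1-day gap was the smaller for Ddit3 (0.13), Chac1 (0.66) and Trib3 1370694_at (0.004). Their differences from array b were then -0.23, 0.81 and 0.24. The distances below are as scaled. The median absolute difference over the 13 probe sets was 0.29 for 7 days and array b, 1.04 for 7 days and array a, and 1.08 for the 1-day pair. The 7-day array was nearer to array b than to array a for 11 of the 13, the exceptions being Atf3 and 1370695_s_at of Trib3, and for 79.7% of all gene probe sets.

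Other genes of the response were set against the 1-day arrays with the brightest kept probe set standing for each gene. List medians differed between the comparisons, running from -0.40 to 0.19 relative to array b (-0.58 to 0.01 with median centring) and from 0.08 to 0.74 relative to array a. Of all kept probe sets, 50% were higher than array b and 50% lower, and 47.1% were higher than array a. These shares are as scaled. With median centring the median over all kept probe sets was -0.18 relative to array b, so lower list counts there follow a shift of all genes. Of the kinases, phosphatase subunits and eIF2B subunits around eIF2, 6 of 12 read higher than array b and 6 lower, with a median of -0.02. With median centring 1 of 12 read higher than array b. Relative to array a 10 of 12 read higher with a median of 0.55. The kinase genes Eif2ak3, which encodes PERK, and Eif2ak2, which encodes the double-stranded RNA sensor PKR, were the lowest relative to array b. They stood at -0.23 and -0.19 there, and at 0.57 and -1.56 relative to array a. Ppp1r15a, the inducible phosphatase subunit GADD34 that ends the response, stood at 0.16 (-0.02 with median centring) relative to array b and 1.27 relative to array a, and Eif2b4 at 0.21 and -0.09. Limma called 0 genes on each of the 9 pathway lists.

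Of the amino acid transporters linked to ATF4, 6 of 8 were lower than array b with a median of -0.14, whereas 5 of 8 were higher than array a with a median of 0.32. The 2 above array b were Slc7a11, the cystine importer that feeds glutathione synthesis, and the glycine transporter gene Slc6a9. Slc7a11 read 1016 on the 7-day array, 1404 on 1-day array a and 514 on 1-day array b, a difference of 0.96 from array b and -0.46 from array a (0.75 with median centring). Slc6a9 read 2096, 1414 and 1149.6 on the same arrays, above both 1-day arrays by 0.56 and 0.86. The neutral amino acid transporters Slc1a4 and Slc7a5 were the lowest relative to array b at -0.33 and -0.29, and stood at -0.33 and 1.03 relative to array a. As scaled, Slc7a11 had the same order of arrays as Chac1, with 1-day array a highest and array b lowest. The Trib3 probe sets and the dim one of Sesn2 had that order too. Of all gene probe sets, 53.7% read between the 1-day arrays at 7 days, and the median of array a minus array b was 0.85.

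Serine, one-carbon and cysteine synthesis genes had 6 of 8 higher than array b (5 of 8 with median centring) and a median of 0.19. The mitochondrial folate enzyme genes Aldh1l2 and Mthfd2 stood at 0.43 and 0.27, and Pck2 (-0.07) and Aldh18a1 (-0.08) were the lowest. Relative to array a, 4 of 8 were higher with a median of 0.15. Aminoacyl-tRNA synthetases with the tRNA exporter Xpot had 7 of 13 higher than array b (1 of 13 with median centring) and a median of 0.01. They ran from Aars1 at 0.24 and Xpot at 0.13 (-0.05 with median centring) to Nars1 at -0.15 and Iars1 at -0.22. Relative to array a, 8 of 13 were higher with a median of 0.69. The remaining ATF4-linked genes had 2 of 8 higher than array b (0 of 8 with median centring) and a median of -0.08. Relative to array a, 7 of 8 were higher with a median of 0.74. Among them Eif4ebp1, a brake on translation, stood at 0.10 and Vegfa at 0.04, both below 0 with median centring (-0.08 and -0.14), while Ndrg1 (-0.19) and Vldlr (-0.23) were the lowest relative to array b and stood at 0.80 and 1.42 relative to array a.

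The ATF6 and XBP1 branches of the unfolded protein response share the endoplasmic reticulum signal with PERK. They had 4 of 12 genes higher than array b (0 of 12 with median centring) and a median of -0.06. Relative to array a, 8 of 12 were higher with a median of 0.72. Creld2 and Sdf2l1, which serve folding in that compartment, stood at -0.37 and -0.36, and Atf6 and Pdia4 at 0.15 and 0.09 (-0.04 and -0.09 with median centring). Of a mixed list of other bZIP factor genes, mainly of the C/EBP, CREB/ATF and Jun families, 7 of 12 were higher than array b with a median of 0.06. With median centring 3 of 12 were higher. Atf6b (0.42) and Crem (0.27) were the highest and Cebpd (-0.57) and Cebpg (-0.18) the lowest. Relative to array a, 9 of 12 were higher with a median of 0.68. Cebpd, a C/EBP gene that inflammatory signals induce, read 3567 on the 7-day array, 2134 on 1-day array a and 5312 on 1-day array b.

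Atf3 shares its rapid induction with immediate early genes, and Ddit4 and Cebpb their glucocorticoid response with others, so both groups were set beside them. Rapid response genes had 3 of 9 higher than array b (1 of 9 with median centring) and a median of -0.40, beside -1.11 for Atf3. Zfp36 (-0.86) and Ier2 (-0.62) were the lowest and Nr4a1 (0.28) and Junb (0.14, but -0.04 with median centring) the highest. Relative to array a the rapid list had 6 of 9 higher and a median of 0.59, beside -0.37 for Atf3. Glucocorticoid-responsive genes had 0 of 7 higher than array b and a median of -0.17, from Fkbp5 at -0.05 and Per1 at -0.08 to Sgk1 at -0.25 and Errfi1 at -0.29, beside 0.48 for Ddit4 and -0.02 for Cebpb. Relative to array a, 5 of the 7 were higher with a median of 0.08 (-0.05 with the intensity trend removed), beside 1.56 for Ddit4 and -0.21 for Cebpb.

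**Figure D4:**
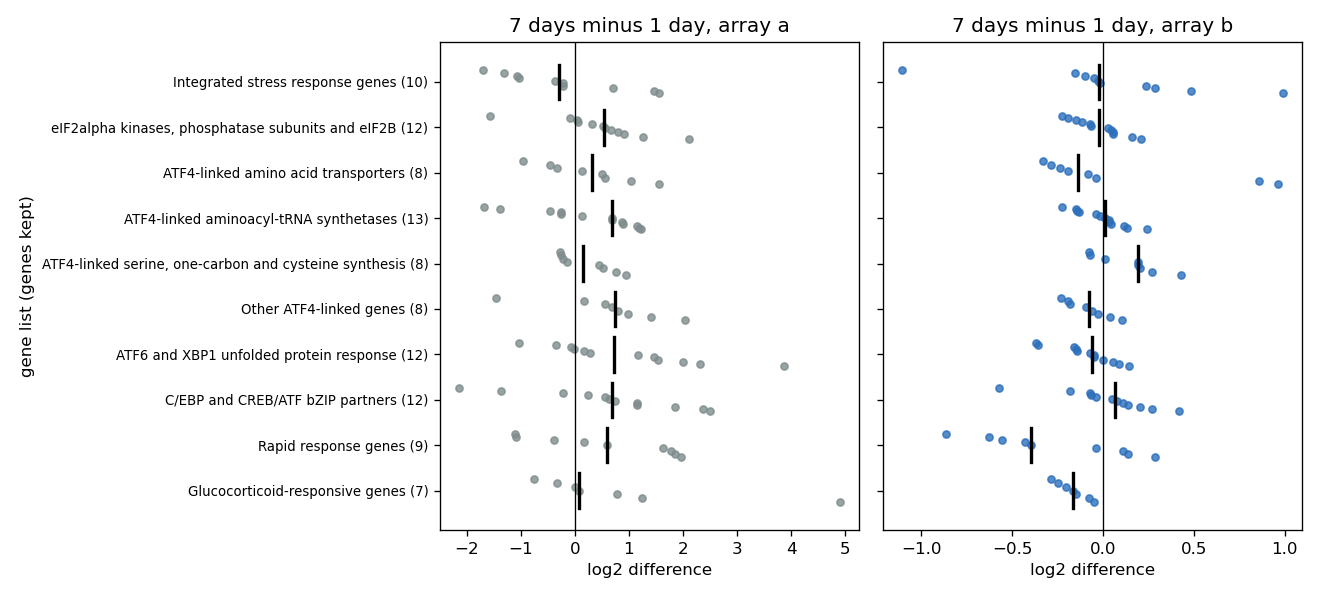
Log2 difference of the 7-day array from 1-day array a (left) and 1-day array b (right) for the kept genes of each list, 1 point per gene, with the list median as a black bar and the number of kept genes in brackets. The horizontal scales differ between the panels, and against array b the medians run from -0.40 for rapid response genes to 0.19 for serine, one-carbon and cysteine synthesis.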

How the data were processed

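RNA of the adrenal medulla was measured on 3 arrays, grouped by the sample titles (7 days: 1, 1 day: 2). Each deposited value is a linear intensity that the authors had already summarised per probe set and, by the equal trimmed means of the values, scaled. The software is not given in the sources used here. Such scaling raises all values of a weak array. Symbols came from the platform annotation and were updated by Entrez identifier through RefSeq (GRCr8), which matched 20758 of the 20826 probe sets with 1 symbol. The members, gene lists and motifs were chosen with earlier results of these data known, and the motifs after the promoters had been read.

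Values were log2(intensity + 16). Control probe sets (57) were left out, and the 15521 gene probe sets with a mean at or above the median (9.60) were kept. Limma (lmFit, then eBayes with a trend on intensity) compared 7 days with 1 day over all kept probe sets, two-sided, with Benjamini-Hochberg adjustment at 0.05. This takes the 7-day group to have the spread of the 1-day pair. Differences from single 1-day arrays carry no test. From each pathway list the 2 highest and the 2 lowest kept genes by difference from array b were named. Alternatives were pseudocounts of 1 and 64, quantile normalisation, median centring, taking out the intensity trend by loess (span 0.5), dropping the filter or raising it to the 75th percentile, limma with no trend or with robust = TRUE, and leaving out each 1-day array. The fit was also run on simulated arrays that were given the spread between 7 days and array b. The 1-day pair, which sets the SE of the real fit, lay farther apart. Over kept probe sets its median absolute difference was 0.88, against 0.20 for 7 days and array b. The simulated run therefore does not show what the fit could detect here. R 4.3.3, limma 3.58.1 and Python 3.11.15 were used.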

Additional observations from a re-analysis of the deposited data

How the results depend on the processing

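Limma called 0 of the members' probe sets in all 10 fits, with lowest adjusted p-values that all round to 1.00. Without 1-day array a or b no residual degree of freedom is left, so those settings give values with no test. The number of members beyond both 1-day arrays, which was 7, was 6 or 7 under the other scalings and pseudocounts. Quantile normalisation left 3 below both (5 as reported), and median centring put 5 above both (2 as reported) and 1 below both. Median centring moves the median of all gene probe sets from 0.08 to -0.10 relative to array b and from -0.71 to 0.50 relative to array a. With 1 of the 1-day arrays left out, 3 to 7 members read higher, 6 to 10 lower and 2 to 7 at least 2-fold apart, and the count beyond both arrays has no meaning there.

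Against the mean of the 1-day arrays, signs turned for Atf3 with quantile normalisation (0.048), for Chac1 once the trend on intensity was taken out (0.25), and under median centring for Atf5 (0.36), Trib3 1370694_at (0.24), Chac1 (0.48) and Cebpb (0.40). Median centring moves the differences of all probe sets by the same amount, so the turns under it are not particular to these genes. Why the signs turned in the other settings was not tested. Leaving out 1-day arrays gave ranges that span 0 for Atf4 (-0.027 to 1.47), Trib3 1370694_at (-0.97 to 0.42), 1370695_s_at (-0.083 to 0.35) and 1386321_s_at (-1.70 to 0.24), Chac1 (-1.06 to 0.99) and the dim Sesn2 probe set (-3.38 to 1.47), the first of each pair with array a left out for Atf4 and with array b left out for the rest. No paired analysis was possible because the groups share only the letter a. Only 3 arrays were measured, and none of the deposited values says which probe sets were above background.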
